A study of Mus musculus with 5 samples.

Results

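High runners (H-RUN) were compared with mice housed with a locked disk (LD), gene by gene, in RNA of the dentate gyrus (DG). The difference for each gene is the deposited value in the H-RUN library minus the value in the LD library. It was taken for every gene symbol whose mean over the 5 libraries of the series was at least 5, which held for 13550 of 23420 symbols. The values are regularized logs on the log2 scale, so that a difference of 0.3 is a 1.23-fold change. All mice were adult wild-type males of the outbred CD1 strain, labelled as 4 months old, and were kept for 4 weeks in their housing condition. LD mice lived alone with a running disk that could not turn. RUN mice lived alone with a disk that turned, and the 8 runners were ranked by the distance they ran: the 4 that ran least were pooled as L-RUN and the 4 that ran most as H-RUN. Mice of the complex environment (CE) lived in a social group with tunnels and a locked disk. The LD, CE and RUN libraries each held RNA of 8 mice, and the RUN library pooled all 8 runners, whose RNA was also split between the other 2 runner libraries.

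The DG is the part of the hippocampus whose granule cells receive the main input from the entorhinal cortex, and it keeps adding new granule cells in adult rodents. Voluntary running is known to raise the birth of these cells and the expression of Bdnf, a growth factor of neurons. Granule cells also change their receptors, ion channels and secreted peptides with activity and with stress hormones, which are both affected by exercise. RNA of the whole microdissected DG was measured, so that the values mix granule cells with interneurons, glia, vessels and any neighbouring tissue. For a gene of 1 cell type, fewer cells of a type and less RNA per cell cannot be told apart.

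Each group was 1 library, so no test can be run on the difference between H-RUN and LD, no p-value is given, and no replicate library checks the difference. Read counts were not analysed here and the depth of the libraries is unknown. One measure of technical error could be had from the runners, because RUN is a separate library of RNA that L-RUN and H-RUN also hold. The spread of the RUN values around those of an equal mixture of the other 2 gave a technical SD of 0.0365 for the difference of 2 libraries, and 0.0222 to 0.0473 over the deciles of expression. This SD covers library preparation and sequencing of the runners' RNA. It covers neither the variation between mice nor the LD library, for which no repeat exists. A gene is called here when H-RUN and LD lay at least 0.3 apart, which is 8.23 times the technical SD.

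Most genes lay close to LD in the high runners. The median difference over the 13550 genes was -0.0035, the quartiles were -0.0553 and 0.0477, and the SD across genes was 0.0891. The cut-off of 0.3 called 112 genes (0.827% of those tested), of which 48 were higher in H-RUN (0.354%) and 64 were lower (0.472%). The same cut-off called 3.13% of these genes in L-RUN, 1.31% in RUN and 0.598% in CE, each against the same LD library. In H-RUN, a cut-off of 0.4 called 38 genes (0.28%) and one of 0.2 called 448 (3.31%). The differences ran from -0.68 for Ogn, a proteoglycan of the extracellular matrix, to 0.83 for Penk, the precursor of the enkephalin opioid peptides. The smallest called difference, relative to the error at its own level of expression, was 6.46 technical SDs. Genes just inside the cut-off were Csdc2 (0.305), Rab40b (0.307) and Epha7 (0.307) on the higher side and Per3 (-0.3001), Prr16 (-0.301) and Adcyap1r1 (-0.304) on the lower side. Just outside it lay Kcnip3 (0.298), Svil (0.292) and Mapk4 (0.290), and on the lower side Gfra2 (-0.299), Eif2c3 (-0.294) and Dpy19l1 (-0.294).

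**Figure D1:**
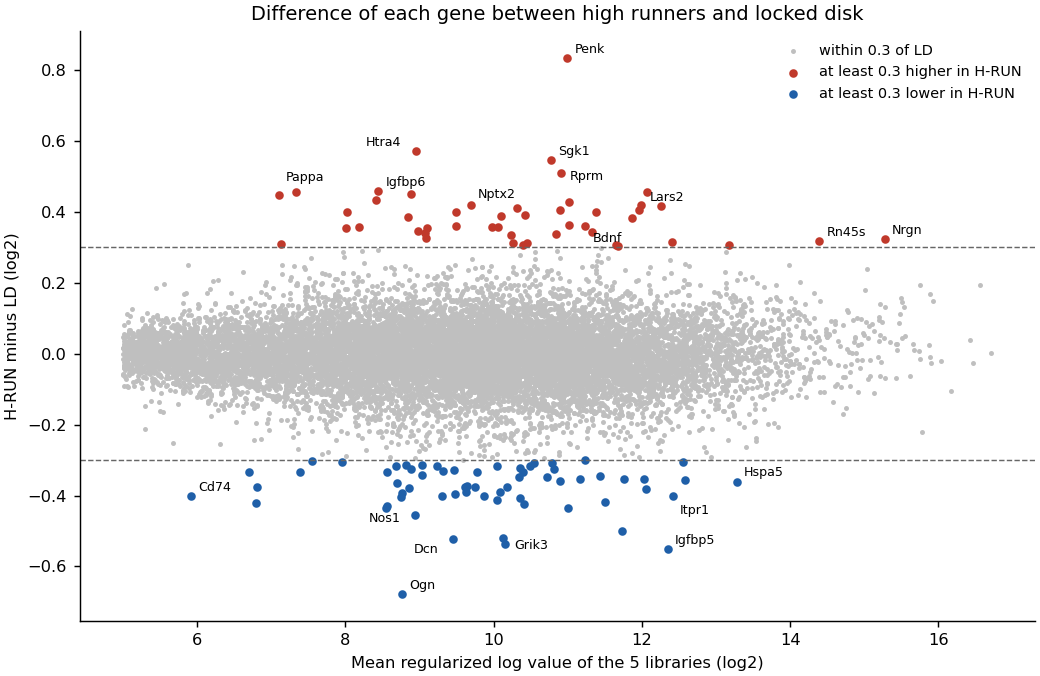
Difference between H-RUN and LD (vertical axis, log2) against the mean regularized log value of the 5 libraries (horizontal axis, log2), 1 point per gene for 13550 genes, with the cut-off of 0.3 as dashed lines. The 48 red points lie at or above 0.3 and the 64 blue points at or below -0.3, and Penk stands highest at 0.83 and Ogn lowest at -0.68.

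A second estimate of the high runners can be made without reading their own library, although all 5 libraries were normalized together. If RUN holds both sets of runners in equal parts, the H-RUN value follows from the other 2 runner libraries, and this computed value was compared with LD in place of the measured one. Both differences subtract the same LD library and come from RNA of the same mice, so the comparison bears on the error of the runner libraries and says nothing of LD or of other mice. Of the 112 called genes, 110 lay on the same side of LD by the computed value and 86 were past the cut-off, 38 of the 48 higher genes and 48 of the 64 lower ones. The median ratio of the computed to the measured difference was 0.985, with quartiles of 0.874 and 1.097. Over all genes, the SD of the measured minus the computed difference was 0.0629, scaled from the median absolute deviation, which gives outlying genes little weight. This SD is small beside the cut-off of 0.3, so few called genes could change side. By the computed value, 166 genes passed the cut-off, of which 86 were called by the measured value. The 2 genes that did not keep their direction were Lars2, a mitochondrial leucyl-tRNA synthetase, and Rn45s, the precursor of ribosomal RNA. Lars2 stood at 11.78 in LD, 12.26 in L-RUN, 12.20 in H-RUN and 12.04 in RUN, so that the pool of all runners lay below both of its parts. Its measured difference was 0.42 and its computed one -0.0001. For Rn45s, the measured difference was 0.32 and the computed one -0.24. These 2 genes are counted among the 48 higher genes, and their values depend on which runner library is read.

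**Figure D2:**
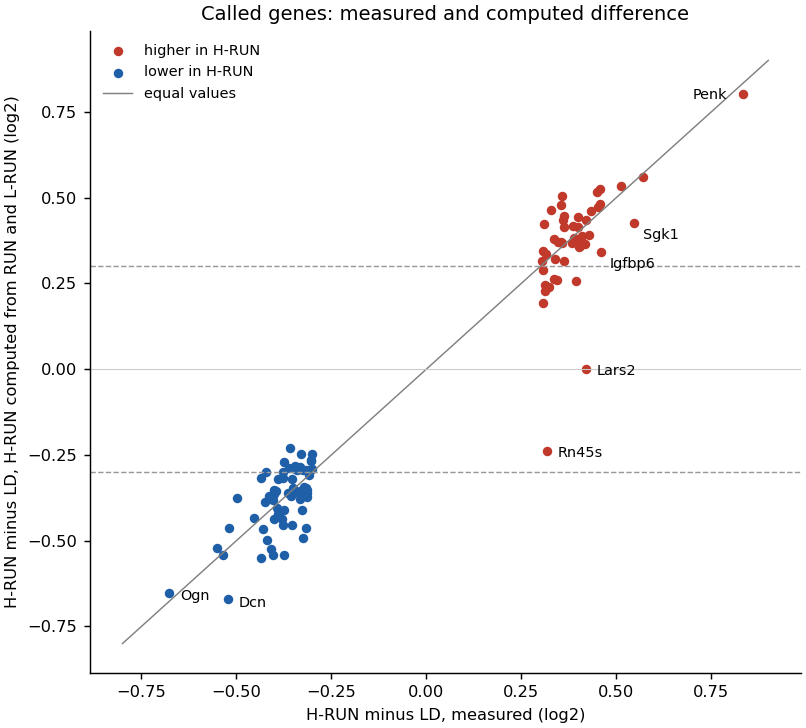
Measured difference between H-RUN and LD (horizontal axis, log2) against the difference computed for H-RUN from the RUN and L-RUN libraries (vertical axis, log2) for the 112 called genes. The points follow the line of equal values except for Lars2 and Rn45s, which were higher in H-RUN as measured and had computed values of -0.0001 and -0.24.

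Penk had the largest difference of all genes tested. It lies on chromosome 4 (4133536 to 4138815; all gene positions are those of RefSeq on GRCm38.p6, the mm10 build). Its regularized log value was 10.46 in LD, 10.52 in CE, 11.37 in L-RUN, 11.32 in RUN and 11.29 in H-RUN, a difference of 0.83 in H-RUN (technical SD 0.0308). The 3 runner libraries lay within 0.1 of each other and all stood apart from the LD and CE libraries. Penk was 1.78-fold higher in H-RUN than in LD. Of 19 tested genes for neuropeptides and their precursors, Penk was the one called (0.354% of all genes tested were called higher), and the median of the list was -0.0016. Neuropeptide Y (Npy) had a difference of -0.002, somatostatin (Sst) 0.04, dynorphin (Pdyn) -0.02, and the granule protein Chgb 0.25.

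A pair of neighbouring genes on chromosome 8 followed. Htra4, a secreted serine protease, stood at 8.62 in LD, 8.63 in CE, 9.15 in L-RUN, 9.17 in RUN and 9.20 in H-RUN, a difference of 0.57 (technical SD 0.0473). Plekha2, an adaptor protein that binds phosphoinositides, lies beside Htra4 with 181 bases between the 2 genes (25039144 to 25104679 for Plekha2 and 25024928 to 25038962 for Htra4). It went from 11.84 in LD and 11.78 in CE to 12.18 in L-RUN, 12.25 in RUN and 12.30 in H-RUN, a difference of 0.46. Both genes were higher in every runner library than in LD and CE. Whether the reads were counted by strand is not given in the sources used here, so reads of such close neighbours may not be fully separated.

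Several other genes at the top of the higher list were above LD in all 3 runner libraries, with different values in CE. Rprm, a p53 target linked to arrest of the cell cycle, had differences from LD of 0.31 in CE, 0.54 in L-RUN, 0.54 in RUN and 0.51 in H-RUN. Lgr6, a receptor for R-spondins that amplify Wnt signals, was higher in CE (0.51) than in H-RUN (0.45), and its difference between H-RUN and CE was -0.0547. Robo3, a receptor that guides axons across the midline, stood at 10.74 in LD, 10.72 in CE and 11.17 in H-RUN (0.43), and Rgs4, which speeds the shut-off of G protein signals, at 12.03, 12.01 and 12.45 (0.42). C1ql2, a synaptic organizer secreted by granule cells, differed from LD by 0.17 in CE, 0.37 in L-RUN, 0.37 in RUN and 0.40 in H-RUN. The dopamine D1 receptor gene, listed under its older symbol Drd1a, stood at 8.21 in LD, 8.17 in CE, 8.45 in L-RUN, 8.56 in RUN and 8.64 in H-RUN (0.43). H-RUN lay above L-RUN for this gene. RUN pools the mice of both, so its place between them, here and in genes below, follows from the pooling. Others of the 20 genes with the largest positive differences were Trnp1 (0.40), a nuclear protein of neural progenitors, Bok (0.41), Lrrc10b (0.41) and Serinc2 (0.40), and the genes described elsewhere in the text.

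**Figure D3:**
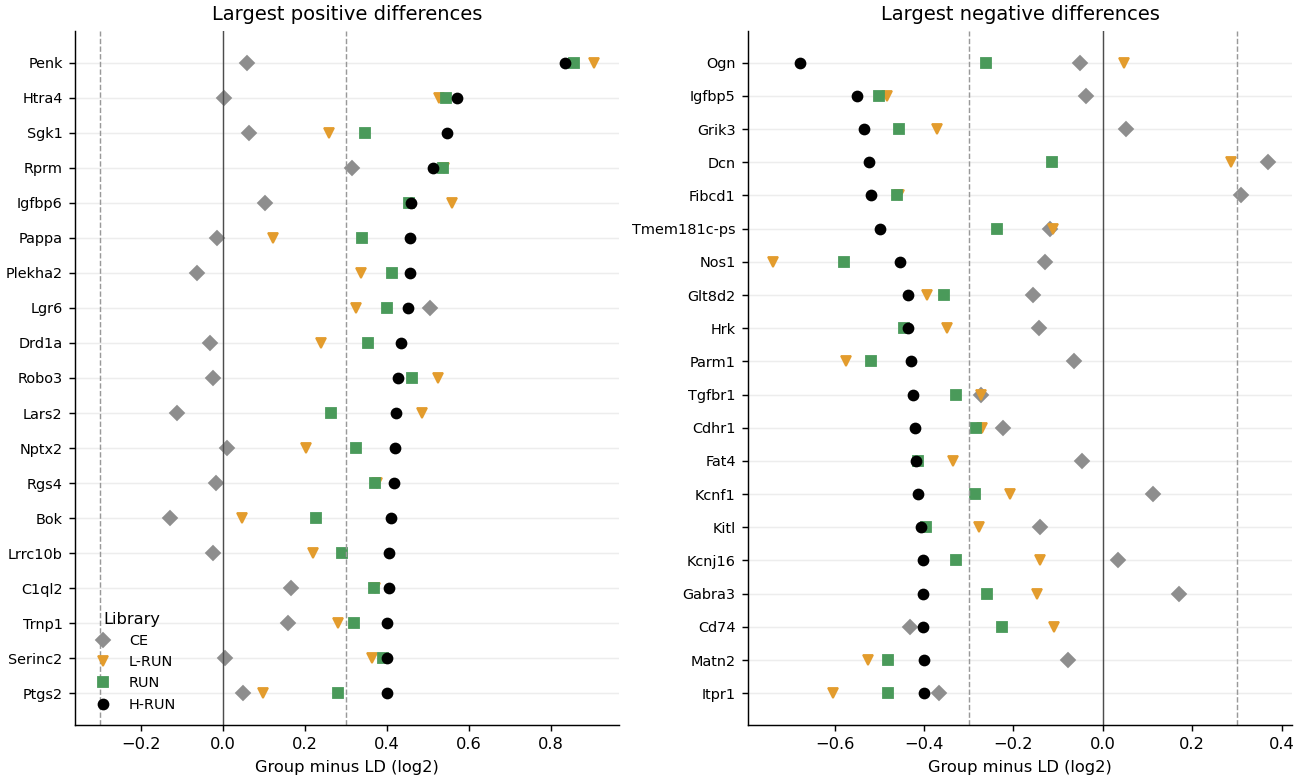
Difference from LD (horizontal axis, log2) in CE, L-RUN, RUN and H-RUN for genes from the 20 largest positive (left) and the 20 largest negative (right) differences in H-RUN, 1 point per library, with dashed lines at the cut-off of 0.3. For Penk and Htra4 the 3 runner libraries lie together, whereas for Sgk1, Pappa and Bok H-RUN lies farthest from LD, and for Ogn and Dcn L-RUN lies above LD and H-RUN below it.

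Insulin-like growth factor (IGF) signaling was represented by binding proteins and a protease rather than by the ligands. IGF binding proteins hold the ligand in the tissue, and the protease Pappa releases it by cutting binding proteins. Of 16 tested genes of this system, 2 were higher (0.354% of all genes tested), 1 was lower (0.472% of all), and the median was -0.0405. Igfbp5 (chromosome 1) stood at 12.66 in LD, 12.62 in CE, 12.18 in L-RUN, 12.16 in RUN and 12.11 in H-RUN, a difference of -0.55 (technical SD 0.0222). All 3 runner libraries lay below LD and CE. Igfbp6 (chromosome 15) stood at 8.13 in LD, 8.23 in CE, 8.68 in L-RUN, 8.58 in RUN and 8.58 in H-RUN (0.46, technical SD 0.0473). Pappa, on chromosome 4, stood at 7.16 in LD, 7.14 in CE, 7.28 in L-RUN, 7.50 in RUN and 7.61 in H-RUN (0.46, technical SD 0.0438). H-RUN was the highest of the 5 libraries for Pappa and L-RUN the highest for Igfbp6. The ligands Igf1 and Igf2 had differences of -0.12 and -0.05 in H-RUN, and the receptor Igf1r -0.18. For Igf2, the value was 9.65 in LD, 9.60 in H-RUN and 10.75 in L-RUN.

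Sgk1 had the third largest positive difference. It encodes a kinase that is induced by glucocorticoids and acts on ion channels and transporters. The gene spans 21882184 to 21999903 on chromosome 10, with 6 start sites in the RefSeq promoter table. Its value was 10.54 in LD, 10.60 in CE, 10.79 in L-RUN, 10.88 in RUN and 11.08 in H-RUN, a difference of 0.55 (technical SD 0.0308), or 1.46-fold. LD was the lowest library, CE lay 0.06 above LD, and H-RUN lay 0.29 above L-RUN, with RUN, the pool of both, between them. The difference computed from RUN and L-RUN was 0.43. The 250 bases before 1 of its starts (GRCm38.p6, chr10:21993640-21993889, plus strand) are shown because they hold an inverted repeat known as the binding site of the glucocorticoid receptor, in capitals, beginning 189 bases before the start:

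Sgk1: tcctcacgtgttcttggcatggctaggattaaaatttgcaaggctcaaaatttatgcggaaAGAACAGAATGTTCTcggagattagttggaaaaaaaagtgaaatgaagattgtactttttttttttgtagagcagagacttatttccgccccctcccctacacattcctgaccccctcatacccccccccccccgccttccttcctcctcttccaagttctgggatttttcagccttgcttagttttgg

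The letters searched for, AGAACA and TGTTCT with any 3 bases between them, occurred on either strand in 3 of the 32851 RefSeq promoter windows searched (0.00913%). The match is a description of the sequence and not evidence that the site was bound here.

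Other glucocorticoid genes lay nearer to LD. Of 18 tested receptors and response genes, Sgk1 was the one called (0.354% of all genes tested were called higher), and the median was 0.0195. Fkbp5 and Tsc22d3, which are widely used readouts of glucocorticoid action, both had differences of 0.01 in H-RUN, Per1 had -0.02 and Klf9 -0.02. The metallothioneins Mt1 and Mt2, which bind zinc and also respond to glucocorticoids, had differences of 0.26 and 0.17, against 0.39 and 0.25 in CE. The receptor genes Nr3c1 and Nr3c2 had -0.13 and -0.10.

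Genes known to be induced by neuronal activity did not move as a group. Of 27 tested, 3 were higher (0.354% of all genes tested), none was lower, and the median was -0.0201. The 3 were Nptx2, a pentraxin that clusters AMPA receptors, Ptgs2, the inducible cyclooxygenase of prostaglandin synthesis, and Bdnf, the neurotrophin. Nptx2 (chromosome 5) stood at 9.50 in LD, 9.51 in CE, 9.70 in L-RUN, 9.82 in RUN and 9.92 in H-RUN (0.42, technical SD 0.0403). Ptgs2 (chromosome 1) stood at 9.32, 9.37, 9.42, 9.60 and 9.72 in the same order (0.40, technical SD 0.0417). For Bdnf (chromosome 2), the values were 11.07 in LD, 11.08 in CE, 11.26 in L-RUN, 11.33 in RUN and 11.43 in H-RUN (0.36, technical SD 0.0308). In all 3 genes H-RUN was the highest library and L-RUN the lowest of the runner libraries, and LD and CE lay within 0.06 of each other. The study singled out these 3 genes, Sgk1 and several of the channel genes below on these same libraries, so their direction is not independent evidence. It also measured Bdnf and Cd74 by quantitative PCR in the DG of the other side of the same mice. There it reported Bdnf raised in all running groups and Cd74 lowered relative to LD in all enrichment groups, running ones included. Genes of the first wave lay on the other side or near LD: Nr4a3 had a difference of -0.18, Arc -0.15, Fos -0.14, Egr1 -0.10 and Npas4 -0.05, whereas Junb had 0.14 and Ier5 0.27. In L-RUN, Arc had a difference of -0.45 and Nr4a3 of -0.51. Of 14 tested prostaglandin genes, Ptgs2 was higher and Cd74 lower (0.354% and 0.472% of all genes tested). The others had differences between -0.10 (Ptgds) and 0.15 (Mif). Of the 6 tested neurotrophins and their receptors, Bdnf was the one called (0.354% of all genes tested were called higher). The Bdnf receptor Ntrk2 had -0.18 and the related Ntf3 0.06.

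Among glutamate receptor subunits, 2 of 18 were lower (0.472% of all genes tested) and none was higher, with a median of -0.0149. Grik3, a kainate receptor subunit (chromosome 4), stood at 10.42 in LD, 10.47 in CE, 10.05 in L-RUN, 9.96 in RUN and 9.88 in H-RUN, a difference of -0.54 (technical SD 0.0403). The runner libraries all lay below LD and CE, with H-RUN lowest. Grin3a, an NMDA receptor subunit that lowers calcium flow, stood at 9.96 in LD, 9.99 in CE and 9.62 in H-RUN (-0.33). Grin3a was under the cut-off by the value computed from RUN and L-RUN (-0.28) and with the trend in transcript length removed (-0.29). The main NMDA receptor subunits Grin2a and Grin2b had differences of -0.29 and -0.25 in H-RUN, under the cut-off, against -0.88 and -0.72 in L-RUN. The obligatory subunit Grin1 had 0.15, and the AMPA receptor subunits Gria1 and Gria3 had -0.07 and 0.08. None of 10 tested metabotropic receptors and Homer scaffolds was called (0.827% of all genes tested were called).

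GABA receptor subunits had a median of 0.0469 over 13 genes, of which 1 was lower (0.472% of all genes tested) and none was higher. The called gene was Gabra3, the alpha3 subunit of the GABA-A receptor on the X chromosome, with 9.44 in LD, 9.61 in CE, 9.29 in L-RUN, 9.18 in RUN and 9.03 in H-RUN (-0.40, technical SD 0.0417). Among the subunits on the other side of LD was Gabra5 (0.20), under the cut-off. Gabrd, the delta subunit that granule cells use for tonic inhibition, had 0.05.

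A pair of inward rectifier potassium channel genes that neighbour each other on chromosome 11, with 38.2 kb between them, lay on opposite sides of LD. Kcnj2 stood at 9.94 in LD, 9.91 in CE, 10.10 in L-RUN, 10.22 in RUN and 10.33 in H-RUN (0.39, technical SD 0.0403). Kcnj16 stood at 8.91, 8.95, 8.77, 8.58 and 8.51 in the same order (-0.40, technical SD 0.0473). In both, H-RUN lay farthest from LD and CE lay within 0.04 of it. Of 11 tested genes of this family, 1 was called in each direction (0.354% of all genes higher and 0.472% lower). The other 9 tested genes of this family, among them the G protein-gated Kcnj3 (-0.07), Kcnj6 (-0.09) and Kcnj9 (0.03), lay between -0.09 and 0.17. Of 37 voltage-gated potassium channel genes, 2 were lower (0.472% of all genes tested) and none was higher, with a median of -0.0211. Kcnf1, a silent subunit that modifies Kv2 channels, stood at 10.21 in LD, 10.32 in CE, 10.0003 in L-RUN, 9.92 in RUN and 9.80 in H-RUN (-0.41). Kcnq3, a subunit of the M-current that restrains repeated firing, stood at 9.14 in LD, 8.86 in CE, 8.45 in L-RUN, 8.60 in RUN and 8.75 in H-RUN (-0.39). The order of the runner libraries was reversed between these genes, with H-RUN lowest for Kcnf1 and L-RUN lowest for Kcnq3.

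Calcium handling was represented by a release channel and a pump. Of 26 genes for calcium channels and pumps, 2 were lower (0.472% of all genes tested) and none was higher, with a median of -0.029. Itpr1, the IP3 receptor that releases calcium from the endoplasmic reticulum (ER), stood at 12.79 in LD, 12.42 in CE, 12.18 in L-RUN, 12.31 in RUN and 12.39 in H-RUN (-0.40, technical SD 0.0222). Here CE lay as far below LD as H-RUN did, and the difference between H-RUN and CE was -0.03. Atp2b4, a calcium pump of the plasma membrane, stood at 12.20 in LD, 12.29 in CE, 11.96 in L-RUN, 11.86 in RUN and 11.85 in H-RUN (-0.35), and was under the cut-off with the length trend removed (-0.28). The L-type channel gene Cacna1c had -0.22 and the pump Atp2b2 0.06. Receptors of peptides and amines gave 1 lower gene among 11 adenylyl cyclases and PACAP receptors and 1 among 8 serotonin receptors. Of all genes tested, 0.472% were called lower. Adcyap1r1, the PACAP receptor, stood at 12.74 in LD and 12.44 in H-RUN (-0.30), and was under the cut-off by the computed value (-0.26) and after quantile normalization (-0.29). Htr2c, a serotonin receptor on the X chromosome, stood at 8.65 in LD, 9.12 in CE, 8.77 in L-RUN, 8.51 in RUN and 8.34 in H-RUN (-0.32).

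Genes for chaperones of the ER lay below LD in H-RUN. These proteins fold newly made secreted and membrane proteins, and their genes are induced together when unfolded protein builds up. In the list of 29 heat shock proteins and chaperones, 1 gene was called, Hspa5 (0.472% of all genes tested were called lower), and the median was -0.0709. Hspa5 (chromosome 2), the ER member of the Hsp70 family, stood at 13.46 in LD, 13.26 in CE, 13.34 in L-RUN, 13.26 in RUN and 13.09 in H-RUN (-0.36, technical SD 0.0222), which is 77.9% of the LD level. Pdia6 (-0.28), Pdia4 (-0.25), Hsp90b1 (-0.25), Hyou1 (-0.22), Manf (-0.21), Calr (-0.20), Sdf2l1 (-0.18) and Creld2 (-0.07) were also below LD. Split by compartment, a division made after the values were seen, the 9 ER members all lay below 0 with a median of -0.217, and the median of the other 20 was -0.0196. Of the 9 ER members, 6 lay below 0 in L-RUN, 8 in RUN and all 9 in CE. Their median was -0.0278 in L-RUN, -0.138 in RUN and -0.096 in CE, and -0.219 by the value computed from RUN and L-RUN. By that value Hspa5 itself was under the cut-off (-0.29). Cytosolic heat shock genes stood on both sides of LD, with Hspa8 at -0.02, Hsp90aa1 at -0.02, Hspa1a at 0.07 and Hspa1b at 0.24. Dnajc3, an ER cochaperone of Hspa5 that also holds back the kinase PERK, was not on the list and was picked after its values were seen. It stood at 10.95 in LD, 10.69 in CE, 10.70 in L-RUN, 10.68 in RUN and 10.60 in H-RUN (-0.35), and its computed difference was also under the cut-off (-0.29). The promoter windows of these 2 genes, called by the measured value, are shown because both hold the ER stress element, CCAAT and CCACG with any 9 bases between them, in capitals, on GRCm38.p6 and the plus strand, chr2:34771840-34772089 for Hspa5 and chr14:118937682-118937931 for Dnajc3:

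Hspa5: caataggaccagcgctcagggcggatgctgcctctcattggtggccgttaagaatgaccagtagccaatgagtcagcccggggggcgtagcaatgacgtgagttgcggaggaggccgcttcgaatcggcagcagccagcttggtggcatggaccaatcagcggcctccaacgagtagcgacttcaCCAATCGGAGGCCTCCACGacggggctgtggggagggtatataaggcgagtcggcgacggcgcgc

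Dnajc3: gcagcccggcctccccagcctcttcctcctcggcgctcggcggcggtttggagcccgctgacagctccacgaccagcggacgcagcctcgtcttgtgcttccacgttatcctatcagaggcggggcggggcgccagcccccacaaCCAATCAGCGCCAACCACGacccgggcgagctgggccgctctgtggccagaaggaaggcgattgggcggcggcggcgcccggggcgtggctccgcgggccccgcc

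The match begins 65 bases before the start of Hspa5 and 105 bases before that of Dnajc3. The element was added to the search after the values were seen, and 0.113% of all windows of this length hold it on either strand.

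Circadian clock genes had the largest share of called members among the function lists with more than 2 tested genes (25%). Of 16 tested, 4 were lower (0.472% of all genes tested were called lower) and none was higher, with a median of -0.106. The called genes were Hlf, a transcription factor of the PAR bZIP family that binds D-boxes, the repressor Bhlhe40, the nuclear receptor Nr1d2, which represses Arntl, and the period gene Per3. Hlf stood at 12.27 in LD, 12.14 in CE, 12.02 in L-RUN, 11.93 in RUN and 11.89 in H-RUN (-0.38). Bhlhe40 stood at 11.10, 10.96, 10.80, 10.84 and 10.75 in the same order (-0.36), and Nr1d2 at 11.69, 11.52, 11.32, 11.32 and 11.34 (-0.35). Per3 stood at 11.43 in LD, 11.26 in CE, 11.15 in L-RUN, 11.17 in RUN and 11.13 in H-RUN (-0.30, technical SD 0.0308). By the value computed from RUN and L-RUN, Hlf (-0.44) and Nr1d2 (-0.36) were past the cut-off, and Bhlhe40 (-0.23) and Per3 (-0.25) were not. Against CE none of the 4 was past it, with Hlf at -0.25, Bhlhe40 at -0.21, Nr1d2 at -0.17 and Per3 at -0.13. Per3 was also under it after quantile normalization (-0.28) and with the median of all genes subtracted (-0.297). For all 4, the runner libraries lay within 0.13 of each other and below CE, and CE lay below LD. Genes of the activating arm stood on both sides of LD, Npas2 at 0.16, Arntl at 0.10 and Clock at -0.13. Other output and feedback genes gave -0.24 for Per2, -0.17 for Tef, -0.14 for Dbp, -0.01 for Cry1 and 0.03 for Nr1d1. The list medians were -0.233 in L-RUN, -0.176 in RUN and -0.0508 in CE. The hour at which tissue was taken in each group is not given in the sources used here, and its part in these values was not tested. The windows of Per3 and Hlf (GRCm38.p6, minus strand, chr4:151044666-151044915 and chr11:90390918-90391167) are shown because Per3 holds 2 copies of the D-box TTATGTAA and Hlf holds the full cyclic AMP response element TGACGTCA, both in capitals:

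Per3: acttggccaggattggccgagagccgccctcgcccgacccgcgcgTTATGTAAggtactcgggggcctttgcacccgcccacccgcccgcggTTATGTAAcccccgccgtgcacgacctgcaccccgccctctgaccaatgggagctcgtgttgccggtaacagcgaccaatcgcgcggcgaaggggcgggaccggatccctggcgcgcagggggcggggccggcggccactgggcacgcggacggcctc

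Hlf: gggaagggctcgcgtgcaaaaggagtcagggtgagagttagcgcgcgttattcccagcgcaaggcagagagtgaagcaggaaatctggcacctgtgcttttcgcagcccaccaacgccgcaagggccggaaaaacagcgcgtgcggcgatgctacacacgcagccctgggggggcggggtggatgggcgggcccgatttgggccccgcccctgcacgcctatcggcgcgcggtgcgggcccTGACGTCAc

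The D-boxes begin 205 and 158 bases before the start of Per3, and the element of Hlf 9 bases before its start. All windows of this length held the D-box in 0.819% of cases and the cyclic AMP response element in 1.55%, against 0.47% and 2.47% of the windows of genes tested, and the D-box, which the window of Ecm2 also holds, was added to the search after the values were seen. Windows were present for 38 of the 48 higher genes and for 46 of the 64 lower genes. The cyclic AMP response element was found for Kif17 among the higher genes and for Hlf and Ptpru among the lower ones. Neither the EGR site GCGTGGGCG (0.536% of all windows and 1.0% of those of genes tested) nor the MEF2 site (0.14%) nor the heat shock element (GAA, TTC and GAA with any 2 bases between them, 0.466%) matched in the windows of called genes, and AP-1 sites (TGANTCA, in 6.75% of all windows and 4.29% of those of genes tested) were found for Bdnf, Gstp1 and Ypel4 and for Hspa5, Htr2c and Upp1. The E-box CACGTG, also added after the values were seen, is in 6.02% of all windows and 8.16% of those of genes tested. It was found for Kcnj2, Sgk1, Megf9, Synm and Tmem181a.

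TGF-beta and BMP signaling genes had a median of -0.0618 over 33 genes, 25 of them below 0, with 1 called in each direction (0.354% of all genes higher and 0.472% lower). Tgfbr1, the type I receptor for TGF-beta, stood at 10.66 in LD, 10.39 in CE, 10.39 in L-RUN, 10.33 in RUN and 10.24 in H-RUN (-0.42, technical SD 0.0362). Acvr1c, a type I receptor for activins and Nodal, stood at 10.34 in LD, 10.24 in CE, 10.48 in L-RUN, 10.53 in RUN and 10.65 in H-RUN (0.31), with a computed difference under the cut-off (0.24). The 2 receptor genes thus lay on opposite sides of LD, with H-RUN the lowest library for the first and the highest for the second. The signal carriers Smad5, Smad2 and Smad4 had differences of -0.23, -0.20 and -0.16, and the ligand Tgfb1 had -0.02.

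Other genes among the 20 with the largest negative differences have roles in survival, nitric oxide and adhesion. Nos1, the neuronal nitric oxide synthase, stood at 9.32 in LD, 9.19 in CE, 8.58 in L-RUN, 8.74 in RUN and 8.87 in H-RUN (-0.45), with L-RUN farther from LD than H-RUN. Hrk, a BH3-only protein that promotes apoptosis, stood at 11.27 in LD, 11.13 in CE, 10.92 in L-RUN, 10.83 in RUN and 10.84 in H-RUN (-0.44). Kitl, the ligand of the receptor Kit, differed by -0.41, Fat4, a large protocadherin, by -0.42, and Matn2, a matrix adaptor protein, by -0.40. Parm1 (-0.43), Glt8d2 (-0.44) and Cdhr1 (-0.42) were also on this list. Tmem181c-ps had a difference of -0.50 and the related Tmem181a of -0.33. Reads of such near-identical copies can be split between them by the counting, so both values are uncertain. Cd74, the invariant chain of MHC class II, stood at 6.15 in LD, 5.72 in CE, 6.05 in L-RUN, 5.93 in RUN and 5.75 in H-RUN (-0.40, technical SD 0.0367). CE and H-RUN were nearly equal for Cd74, and it had the smallest value in LD among the 20. The other tested gene of class II presentation, H2-DMa, had a difference of -0.07.

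A pair of small matrix proteoglycans lay below LD in the high runners and not in the low runners. Ogn stood at 8.95 in LD, 8.90 in CE, 8.996 in L-RUN, 8.69 in RUN and 8.27 in H-RUN, a difference of -0.68 (technical SD 0.0473), which is 62.5% of the LD level. Dcn (decorin) stood at 9.45 in LD, 9.82 in CE, 9.74 in L-RUN, 9.34 in RUN and 8.93 in H-RUN, a difference of -0.52 (technical SD 0.0417). In both genes H-RUN was the lowest library and L-RUN lay above LD, with RUN, the pool of both sets of runners, between H-RUN and L-RUN. H-RUN minus L-RUN was -0.72 for Ogn and -0.81 for Dcn. Ecm2, a matrix protein gene 75.2 kb from Ogn on chromosome 13, had a difference of -0.33 in H-RUN and of -0.26 in L-RUN. Both Ogn and Dcn are also expressed by fibroblasts of the meninges, and Dcn by CA1 pyramidal cells. The other 16 tested markers of leptomeningeal fibroblasts lay between -0.10 and 0.05 in H-RUN, with a median of -0.0171, against a median of 0.684 in L-RUN. Among these, Ptgds had a difference of -0.10, Igf2 of -0.05, Igfbp2 of -0.04 and Col1a1 of 0.001. Of 24 tested collagen chains, none was called (0.827% of all genes tested were called), and their median was -0.0302. The summed level of the full marker list was 13.1 in LD and 13.0 in H-RUN on the log2 scale.

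Among the 8 markers of CA1 pyramidal cells, 2 were lower (0.472% of all genes tested), Dcn and Fibcd1, and the median was -0.113. Fibcd1 stood at 10.35 in LD, 10.66 in CE, 9.90 in L-RUN, 9.89 in RUN and 9.83 in H-RUN (-0.52). Of the 8, 6 lay below 0, among them Mpped1 (-0.12) and Nov (-0.23). The 2 above 0 were Wfs1 (0.18) and Pou3f1 (0.10). The list medians were -0.261 in L-RUN, -0.154 in RUN and 0.0684 in CE. The part of CA1 tissue in the values of Dcn and Fibcd1 was not tested. In the list of CA3 and CA2 cells, Bok, a Bcl-2 family protein, was called at 10.21 in LD, 10.08 in CE, 10.25 in L-RUN, 10.44 in RUN and 10.62 in H-RUN (0.41). The other 8 tested markers of that list lay between -0.07 and 0.15. All 12 granule cell markers were tested, among them Prox1 (12.01 in LD and 11.93 in H-RUN) and Calb1 (13.04 and 12.91). So were all 8 CA1 markers, 9 of 10 for CA3 and CA2 and 7 of 9 for thalamus, so that the presence of granule cell markers does not by itself identify the tissue. The granule cell list had a median of -0.0813 against LD and of 0.0917 against CE, with C1ql2 called. Microglial markers lay below LD for 11 of 12 genes with none called, and their median was -0.107 against LD and -0.0003 against CE. Ctss, a lysosomal protease, had the lowest value in that list (-0.27). Lists of interneurons (median -0.0374), astrocytes (-0.0227), oligodendrocytes (0.0127), oligodendrocyte precursors (0.0179), endothelial cells (-0.022), mural cells (0.0121), mossy cells (0.0458), choroid plexus (-0.0078), ependyma (-0.0098) and thalamus (-0.0671) had no called gene. Over all genes tested 0.827% were called, so having none called does not set lists this short apart. No red blood cell gene was tested: Hba-a1, Hba-a2 and Hbb-b2 were listed at 0 in all 5 libraries.

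Genes of dividing cells and young neurons, which running is known to make more abundant, lay near LD. None of 22 tested cell cycle genes was called, against 0.827% of all genes tested. Their median was 0.0108, and Mki67 had a difference of 0.03. None of 18 genes of neuroblasts and immature neurons was called, with a median of 0.0023. With so small a share called over all genes, lists of these sizes with none called are not set apart from other genes. Dcx stood at 9.70 in both LD and H-RUN, Neurod1 had -0.02 and Sox11 -0.01. The highest of this list were Igfbpl1 (0.25), Nhlh1 (0.18) and Stmn2 (0.17). Vascular growth genes had a median of -0.0294, against -0.0035 over all genes, with 10 of 13 below 0 and none called. The lowest of them was the Vegfa receptor gene Flt1 (-0.22), and Vegfa had -0.20.

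Nuclear genes of oxidative phosphorylation lay slightly above LD in H-RUN. Of 60 tested, 55 lay above 0, and the median was 0.0907, against -0.0035 over all genes. None was called (0.827% of all genes tested were called). The highest were Cox6a1 (0.19), Ndufs7 (0.18) and Atp5g1 (0.18), and the lowest was Atp5b (-0.07). The list medians were 0.129 in L-RUN, 0.123 in RUN and 0.0599 in CE. These genes have short transcripts, and with the trend in transcript length described next removed, the median was 0.044.

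**Figure D4:**
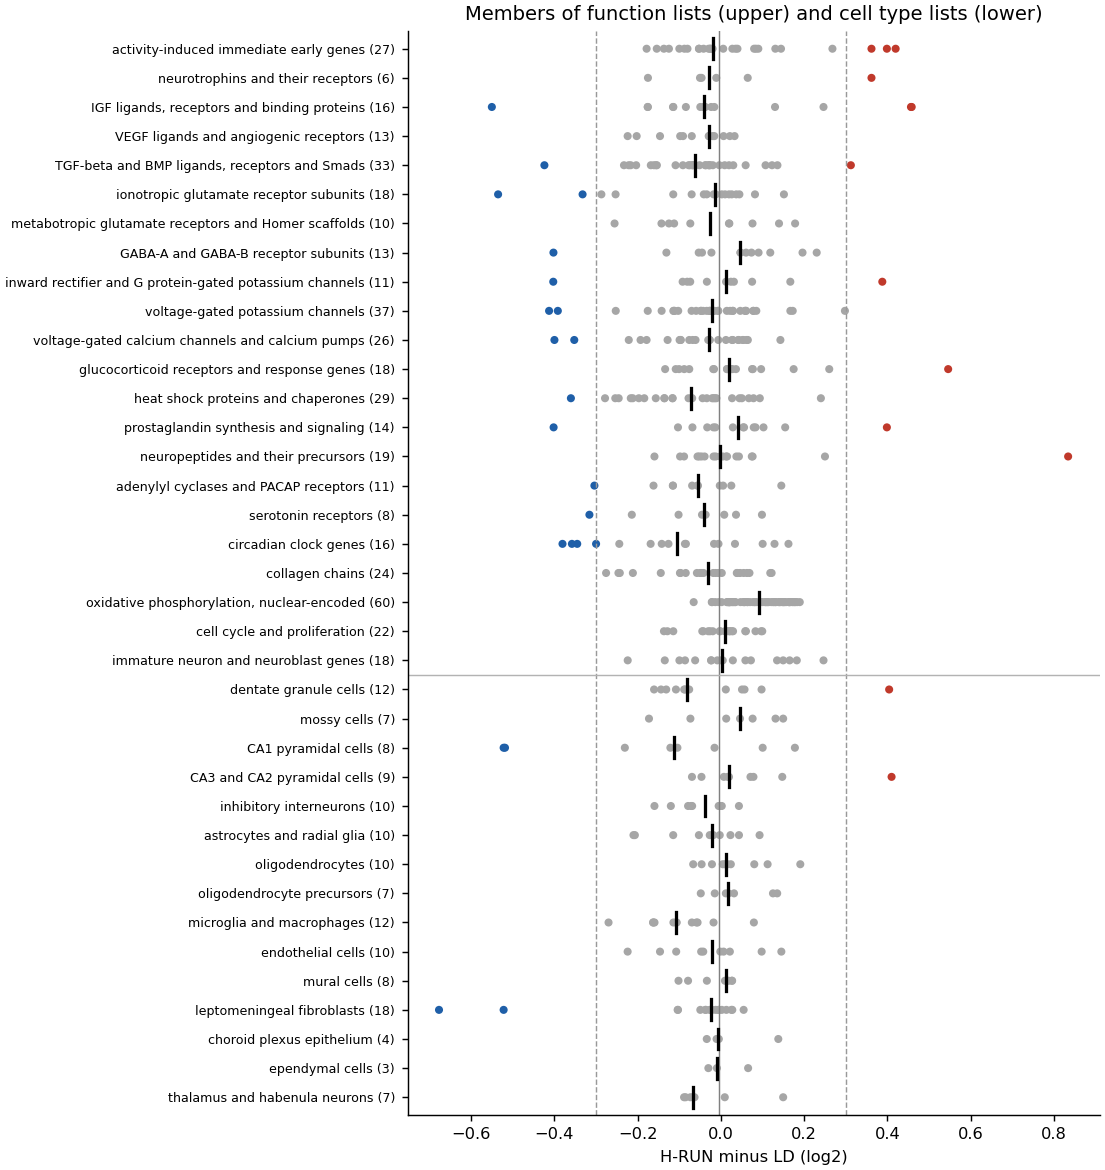
Difference between H-RUN and LD (horizontal axis, log2) for each tested member of the function lists (upper rows) and cell type lists (lower rows), with the number of tested members in parentheses, the list median as a black bar, called genes in red (higher) and blue (lower), and lists with 2 or fewer tested genes left out. The clock list holds 4 blue points and no red one, and the oxidative phosphorylation list lies to the right of the line for the median of all genes without reaching 0.3.

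The difference between H-RUN and LD depended on the length of the transcript. Over 13452 genes with a GENCODE transcript length, the Spearman correlation of the difference with the longest transcript was -0.368. It is given as a description since the genes share the same 2 libraries. In 5 groups of nearly equal size, the median difference was 0.035 for the shortest transcripts (174 to 2088 bases), 0.0126, -0.0023, -0.0216, and -0.049 for the longest (5446 to 123179 bases). The groups held 15, 9, 8, 9 and 6 higher genes and 4, 6, 9, 12 and 32 lower genes. Median transcript length was 2941 bases for the higher genes, 5484 for the lower ones and 3518.5 for all. With the trend removed, 95 genes were called, and 40 of the 48 higher and 45 of the 64 lower genes stayed past the cut-off. Of the 63 lower genes with a length, 18 no longer passed, among them Trpm3 (-0.24), Tenm1 (-0.24), Adamts1 (-0.29), Grin3a (-0.29), Atp2b4 (-0.28), Per3 (-0.27), Adcyap1r1 (-0.27) and Htr2c (-0.295). Those that passed with or without the trend included Grik3 (-0.48), Igfbp5 (-0.52), Itpr1 (-0.34), Kcnq3 (-0.32), Fat4 (-0.34), Nos1 (-0.39) and Hspa5 (-0.36). L-RUN and CE had the trend as well. Against the same LD library, medians of the shortest and longest groups were 0.0714 and -0.0976 in L-RUN and 0.038 and -0.0489 in CE. What gave rise to the trend was not tested.

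**Figure D5:**
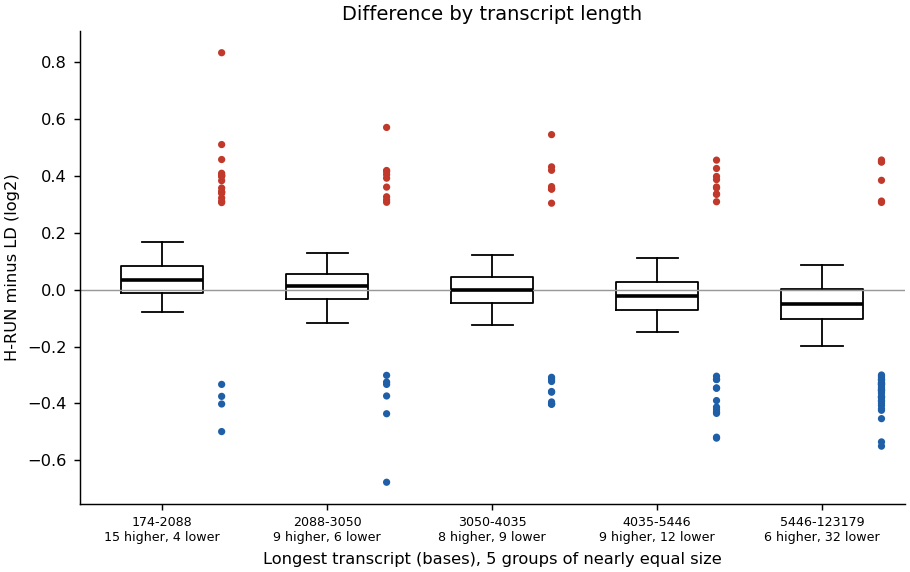
Difference between H-RUN and LD (vertical axis, log2) in 5 groups of genes by the length of the longest transcript (horizontal axis, bases), with boxes for the quartiles, whiskers from the 5th to the 95th percentile, a black line for the median and 1 dot per called gene beside each box. Medians go from 0.035 in the shortest group to -0.049 in the longest, and the longest group holds 32 of the lower genes and 6 of the higher ones.

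Because the same LD library stands in every difference, the called genes were also read against CE, the other group that did not run. With CE as the baseline, 144 genes were called, and 47 of the 112 genes were among them. With the mean of LD and CE, 94 were called, and 64 of the 112 were among them. Penk (0.78 against CE), Htra4 (0.57), Plekha2 (0.52), Sgk1 (0.48), Pappa (0.47), Igfbp5 (-0.51), Grik3 (-0.59), Ogn (-0.63) and Dcn (-0.89) passed against CE, whereas Hspa5 (-0.17), Nr1d2 (-0.17), Per3 (-0.13), Itpr1 (-0.03) and Rprm (0.20) did not. CE differs from H-RUN in social housing and tunnels as well as in running, so these values compare other conditions than those against LD do.

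Several further called genes have known roles in neurons and were picked for description after their values were seen. Nrgn, which binds calmodulin at postsynaptic sites, stood at 15.07 in LD, 15.23 in CE, 15.37 in L-RUN, 15.34 in RUN and 15.39 in H-RUN (0.32). Its call was lost after quantile normalization (0.22), by the computed value (0.24), with the length trend removed (0.29) and against CE (0.16). Kif17, a motor that carries NMDA receptors, differed by 0.36, and Daglb, an enzyme of endocannabinoid synthesis, by 0.34. Gpnmb, a glycoprotein of phagocytes, differed by 0.35 and Hist1h1c, a linker histone, by 0.34. On the lower side, Frrs1l, an AMPA receptor assembly protein, stood at 12.11 in LD, 11.87 in CE, 11.44 in L-RUN, 11.61 in RUN and 11.75 in H-RUN (-0.35). Elfn2 (-0.35), Tenm1 (-0.32), Trpm3 (-0.31) and Eif2c2 (-0.38), the older symbol of the Argonaute gene Ago2, likewise lay farther below LD in L-RUN (-0.50, -0.56, -0.65 and -0.62) than in H-RUN. Frzb, a secreted Wnt antagonist, differed by -0.32 in H-RUN and -0.22 in L-RUN, and Adamts1, a matrix protease, by -0.32 and -0.35.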

How the data were processed

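RNA of microdissected DG was pooled by group and sequenced as 1 polyA library per group. Per the labels and the study's methods, the authors trimmed reads, mapped them to mm10 (CASAVA 1.8.2, TopHat2 2.0.10), assigned them to RefSeq genes by HTSeq, and normalized the 5 libraries together in DESeq2 1.10.1. The deposited values are regularized logs on the log2 scale, which shrink genes of low expression towards their mean, and hold no counts, so that depth is unknown. The labels give an age of 4 months and the study's methods 3 months.

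Differences were H-RUN minus LD for genes with a mean of at least 5, called at 0.3 or more. With 1 library per group no test was possible. The technical SD came from how far RUN lay from the log2 of the linear mean of L-RUN and H-RUN (median absolute deviation, by decile of expression), whose variance was taken as 1.5 times that of 1 library, and that of a difference as 2 times. The computed H-RUN value was log2 of 2 times RUN minus L-RUN on the linear scale, which assumes equal mixing. The transcript length trend was removed with a lowess curve (fraction 0.3, statsmodels 0.14.6). Alternatives were cut-offs of 0.2 and 0.4, a minimum mean of 7 or none, median centring, quantile normalization, 3 times the technical SD, other baselines, the computed H-RUN value and removal of the length trend. The code was tested on simulated data.

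Named are the 20 largest differences in each direction, called members of 23 function lists and 16 cell type lists, other members where a list is described, genes the study names for its high runners, and 3 genes on each side of each cut-off. Some genes within this rule are counted but not reported here by name. Others are said to be picked after their values were seen. Members and lists were chosen with earlier results of these data known. Positions and promoter windows are from RefSeq (GRCm38.p6), with 111 of the 112 called genes matched by symbol or synonym. Windows of a single chromosome were left out of the promoter search, so shares of all windows refer to those searched. Transcript lengths are those of the longest GENCODE transcript of each gene symbol. Tables used python 3.11.15, numpy 2.4.6 and pandas 2.3.3, and plots matplotlib 3.10.9.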

Additional observations from a re-analysis of the deposited data

Results flagged for a closer look

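The 8 called genes given here lay on 1 side of LD in H-RUN and on the other side in L-RUN. With 1 library per group, the difference between the 2 groups of runners was not tested. The genes below LD in H-RUN and above it in L-RUN were Ogn (-0.68 in H-RUN and 0.05 in L-RUN), Dcn (-0.52 and 0.29), the unnamed transcript A730098P11Rik (-0.38 and 0.09), the serotonin receptor gene Htr2c (-0.32 and 0.12) and the orphan receptor gene Gpr101 (-0.30 and 0.24). The genes above LD in H-RUN and below it in L-RUN were Mfsd4, a membrane transporter of the major facilitator family (0.36 and -0.07), Mid1, a ubiquitin ligase on microtubules (0.35 and -0.13), and the ephrin receptor gene Epha7 (0.31 and -0.09). The genes that the report does not describe were named for this pattern, after their values were seen. H-RUN minus L-RUN was -0.72 for Ogn, -0.81 for Dcn, -0.54 for Gpr101 and 0.48 for Mid1. The L-RUN value of Ogn lay within 1 technical SD (0.0473) of LD. Of these genes, only Dcn and Gpr101 lay farther from LD in L-RUN than the SD across all genes there (0.132). The share of all tested genes on opposite sides of LD was not computed. In CE, the same genes stood at -0.05 (Ogn), 0.37 (Dcn), 0.47 (Htr2c) and 0.53 (Gpr101) relative to LD.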

How the results depend on the processing

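The number of called genes followed the cut-off: 448 genes (181 higher and 267 lower) at 0.2 and 38 (18 and 20) at 0.4. By the H-RUN value computed from RUN and L-RUN, 101 genes were lower. Under median centring, quantile normalization, a minimum mean of 7 or none, either other baseline and removal of the length trend, the count in either direction ran from 94 to 144, and each stayed within 1.5 times the value in the report. A further cut-off of 3 technical SDs could change no call, since the smallest called difference was 6.46 of them. Against CE, 4 called genes changed sign: Lgr6 (-0.0547), Cd74 (0.0296), E130008D07Rik (0.0014) and Prmt8 (0.0496). By the computed value 2 did, Lars2 (-0.0001) and Rn45s (-0.24). The cause was not tested. Of the called genes, 42.9% were higher in the report, 33.3% against CE and 39.2% by the computed value. No paired analysis was possible because each group is 1 library, and for the same reason no replicate could be left out. Depth is unknown, the regularized log understates differences of genes of low expression, and variation between mice and repeat error of the LD library were not measured.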
